A study of Arabidopsis thaliana with 6 samples.

Results

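The 29 Aux/IAA genes and 12 of the auxin response factor (ARF) genes of Arabidopsis thaliana were examined for chromatin binding of the H3K4 methylation subunit WDR5A. The 41 genes were chosen by their family, from a list of loci; no measured value enters the rule, but the families were picked with earlier results of these data known. They are 41 of the 27444 protein-coding genes in the RefSeq gene table used here. ARF5, ARF6, ARF7, ARF8 and ARF19 form the activating class, and ARF1, ARF2, ARF3, ARF4, ARF10, ARF16 and ARF17 are the other 7 ARF members.

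The assay was ChIP-seq with an antibody to the HA tag on whole seedlings 9 days old, kept under constant white light. By their descriptions, the 6 libraries are 3 immunoprecipitated libraries (WDR5A-HA_pkl-IP, replicates 1 to 3) and 3 input libraries (WDR5A-HA_pkl-input, replicates 1 to 3). All 6 carry the genotype label WDR5A-HA_pkl, so both groups share the tagged WDR5A and the pkl background, which by its name concerns the CHD3-type remodeller PICKLE. The sample titles disagree with this: they name PKL rather than WDR5A, and read WT for the immunoprecipitated and jaw-5D for the input libraries. The descriptions were followed, so bait and genotype rest on them. Neither the promoter that drives the tagged protein nor the pkl allele is given in the sources used here. Whole seedlings mix all cell types, so a summit cannot be placed in one of them.

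The 3 summit lists, one for each immunoprecipitated library, were analysed. They held 10864, 10408 and 10826 summits for replicates 1, 2 and 3, with median strengths of 7.08, 6.48 and 6.64. The strength was read as the −log10 q value that the authors' peak caller gave to the peak, a reading inferred from its lowest value. The lists give no read numbers, so depth is unknown and strengths were compared within a list or as a mean ± SD over the 3 lists. With 1 group of lists there is no contrast between conditions, and none of the comparisons below carries a test. A gene is called a target when the gene plus 500 bp to either side holds a summit in each of the 3 lists.

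Aux/IAA proteins are short-lived nuclear repressors. They bind ARF transcription factors and recruit TOPLESS corepressors, and auxin glues them to the TIR1/AFB receptors, which mark them for degradation and so free the ARFs. The activating ARFs have a glutamine-rich middle region and switch genes on from auxin response elements, while most other ARFs are held to repress or to compete for the same elements. Many Aux/IAA genes are themselves switched on by auxin, which closes a feedback loop. WDR5A, a WD40-repeat protein, is a core part of COMPASS-like methyltransferases, which place the H3K4 methyl mark found on transcribed genes. No genome, promoter or protein sequence was used here, so no sequence is shown.

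In all, 19 of the 41 genes were targets: 12 of the 29 Aux/IAA genes, 4 of the 5 activating ARF genes and 3 of the 7 other ARF genes. Over all protein-coding genes the share was 24.8%. The ARF counts hold for the 12 ARF members only, not for the whole family. None of the 11 further ARF genes, described below, was a target. The Aux/IAA targets were IAA1, IAA2, IAA3, IAA4, IAA5, IAA7, IAA8, IAA9, IAA13, IAA16, IAA19 and IAA26. The activating targets were ARF6, ARF7, ARF8 and ARF19, and the other ARF targets were ARF2, ARF3 and ARF10. No summit in any list was found at 15 of the 29 Aux/IAA genes, nor at ARF4 or ARF5. The same held for 15476 of the 27444 protein-coding genes, so a lack of summits is not particular to these genes. The remaining 5 genes, IAA18, IAA31, ARF1, ARF16 and ARF17, had a summit in 1 or 2 lists. Of all protein-coding genes, 2779 had one in 1 list and 2388 in 2 lists.

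ARF genes are longer than Aux/IAA genes and therefore have larger windows. The median gene length was 1740 bp over the Aux/IAA members (range 986 to 3137 bp) and 4869 bp over the ARF members (range 3069 to 5735 bp). Among all protein-coding genes in the Aux/IAA length range 25.5% were targets, and in the ARF length range 31.9% were. Within the Aux/IAA class the 12 targets had a median length of 2055.5 bp and the other 17 genes 1740 bp. Within the ARF class these medians were 5167 bp for the 7 targets and 4530 bp for the other 5 genes.

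Each list gave nearly the same picture. A summit lay in the window of 13 of the 29 Aux/IAA genes in each list, against 34.3%, 33.2% and 34.4% of all protein-coding genes in lists 1, 2 and 3. The 13 genes were not all the same: beyond the 12 targets they held IAA18 in lists 1 and 2 (1.95 and 5.69) and IAA31 in list 3 (3.65). The activating ARF genes counted 4 of 5 in every list. The other ARF genes counted 6, 5 and 4 of 7 in lists 1, 2 and 3, the class in which the lists differed most.

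**Figure D1:**
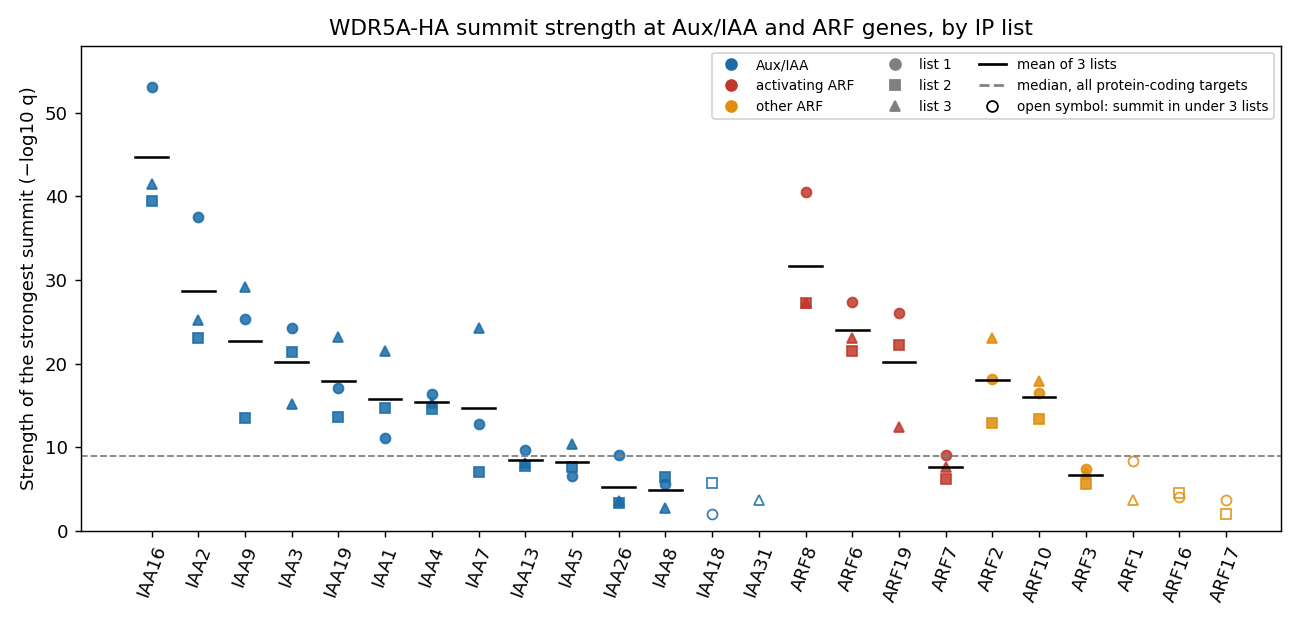
Strength of the strongest summit in the gene window (−log10 q) in each of the 3 lists, for the 24 members with a summit in at least 1 list; black bars are means of the 3 lists and open symbols mark genes with a summit in under 3 lists. IAA16 is highest among the Aux/IAA genes (39.5 to 53.1) and ARF8 among the ARF genes (27.2 to 40.5), while the 5 genes with open symbols all lie below the dashed median of all protein-coding targets (8.90).

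Among the repressors IAA16 carried the strongest summits. IAA16 (AT3G04730), whose stabilised mutant form dampens auxin and abscisic acid responses, had 53.1, 39.5 and 41.5 in lists 1, 2 and 3, a mean of 44.7 ± 7.32 (SD, n = 3). Ranked within their own lists, these summits stood above 98.9%, 98.3% and 98.3% of all summits. The summits lay inside the gene, on chromosome 3 at 1288481, 1288485 and 1288374 (TAIR10), between 219 and 330 bp from the nearer gene edge. Further summits in the IAA16 window were not placed alike: one of 25.7 in the gene body in list 1 only, one outside the opposite edge in lists 2 and 3 (21.6 and 17.2), and one of 8.04 inside that edge in list 3 only.

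IAA2 (AT3G23030), an early auxin-induced gene, followed with 37.5, 23.1 and 25.2, a mean of 28.6 ± 7.81 (SD, n = 3). Its summits sat within 30 bp of each other, with the median 206 bp inside the gene (chromosome 3, 8181889). Lists 1 and 2 held a weaker second summit in the IAA2 gene body, at 7.72 and 6.22, which list 3 lacked.

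IAA9 (AT5G65670), the close relative of IAA8, had 25.3, 13.5 and 29.2, a mean of 22.7 ± 8.17 (SD, n = 3). List 2 was low for IAA9. That region, 66 bp outside IAA9 (chromosome 5, 26253342), also lies inside the long non-coding RNA gene AT5G09425. A second region inside the far end of IAA9 had 7.60, 7.90 and 7.84.

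IAA3 (AT1G04240, SHY2), a switch of root meristem size between auxin and cytokinin, had 24.2, 21.3 and 15.1, a mean of 20.2 ± 4.64 (SD, n = 3). Its region lay 114 bp inside the gene (chromosome 1, 1129575). IAA19 (AT3G15540, MSG2), the partner of ARF7 in hypocotyl bending, had 17.0, 13.6 and 23.2, a mean of 17.9 ± 4.85 (SD, n = 3). Here the region lay 135 bp outside (chromosome 3, 5263866). IAA16 was the highest of these 5 genes in every list, and IAA2 was above IAA3 and IAA19 in every list, while the place of IAA9 changed. Neighbouring means from IAA2 down to IAA19 differed by less than the SD of either gene.

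IAA1 (AT4G14560) and IAA4 (AT5G43700), both early auxin-induced genes, and IAA7 (AT3G23050) came next by mean strength. The step down from IAA19 (17.9 ± 4.85) to IAA1 (15.8 ± 5.31) was less than either SD. IAA1 had 11.0, 14.7 and 21.5, with a region 36 bp outside the gene (chromosome 4, 8360960). The values of IAA4 were 16.3, 14.5 and 15.3, the smallest spread of strength among the 19 targets (15.4 ± 0.908, SD, n = 3). That small spread joins separate places, because the strongest summit of list 1 lay beyond one edge and those of lists 2 and 3 beyond the other.

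IAA7 (AXR2), best known from a dominant mutant with agravitropic, dwarfed shoots, had 12.7, 6.98 and 24.2, a mean of 14.6 ± 8.79 (SD, n = 3). That is the widest spread among the 19 targets, with list 3 high and list 2 low, although the 3 summits lay within 29 bp. A second IAA7 region near the other edge had 5.71, 4.23 and 4.57.

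The 4 remaining Aux/IAA targets had means below the median of all protein-coding targets (8.90). IAA13 (AT2G33310), whose stabilised form blocks embryonic root formation, averaged 8.49 ± 1.03, above the list median in every list, and IAA5 (AT1G15580), an early auxin-induced gene, 8.20 ± 1.98 (SD, n = 3 each). IAA26 (AT3G16500), first found as a phytochrome-binding protein, averaged 5.28 ± 3.24, and IAA8 (AT2G22670) 4.92 ± 1.94 (SD, n = 3 each). IAA26 had 9.02 in list 1 but 3.31 and 3.50 in lists 2 and 3, and its strongest summit in list 2 lay at the opposite end of the gene. IAA8 had 5.55, 6.46 and 2.74, each below the median strength of its list.

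Among the activating ARF genes ARF8 was strongest, ARF6 and ARF19 followed, ARF7 was weak and ARF5 had no summit. ARF8 (AT5G37020) and ARF6 (AT1G30330) act together in flower maturation and are both cut by miR167. ARF8 had 40.5, 27.2 and 27.3, a mean of 31.7 ± 7.67 (SD, n = 3). Its summits straddled one gene edge, 44 and 30 bp inside in lists 1 and 3 and 14 bp outside in list 2 (median on chromosome 5, 14629483).

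ARF6 had 27.4, 21.5 and 23.1, a mean of 24.0 ± 3.03 (SD, n = 3), in a region 64 bp outside the gene (chromosome 1, 10685758). A second ARF6 region, 116 bp inside the other edge, had 22.1, 5.73 and 16.6. List 2 was low there, while the 3 lists differed much less at the first edge. ARF8 was above ARF6 in every list, by less than the SD of ARF8 in lists 2 and 3.

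ARF7 (AT5G20730, NPH4) and ARF19 (AT1G19220) are the pair that drives lateral root formation and tropic growth. ARF19 had 26.0, 22.2 and 12.3, a mean of 20.2 ± 7.05 (SD, n = 3), in a region 118 bp inside the gene (chromosome 1, 6627801). ARF7 had 9.09, 6.13 and 7.60, a mean of 7.61 ± 1.48 (SD, n = 3), below ARF19 in each list. The ARF7 region, 95 bp outside the gene, also lies inside CPN20, a chloroplast co-chaperonin gene. ARF5 (AT1G19850, MONOPTEROS), the ARF that patterns the embryonic root and vasculature, had no reproducible region nearer than 7380 bp.

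Of the other ARF genes, ARF2 and ARF10 were the strong ones. ARF2 (AT5G62000), a repressor that limits seed size and organ growth, had 18.1, 12.8 and 23.1, a mean of 18.0 ± 5.12 (SD, n = 3). Its strongest summit lay outside one edge in lists 1 and 2 and outside the opposite edge in list 3, 5818 bp apart at the extremes. Followed as separate places, the region 99 bp outside one edge had 18.1, 12.8 and 18.6, and the region 489 bp outside the other had 10.2, 11.3 and 23.1. The place 99 bp from ARF2 lies 313 bp outside HSFB2A, a heat shock factor gene, and the place 489 bp away lies inside the long non-coding RNA gene AT5G09045.

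ARF10 (AT2G28350), which with ARF16 shapes the root cap, had 16.5, 13.4 and 17.9, a mean of 15.9 ± 2.32 (SD, n = 3), in a region 245 bp inside the gene (chromosome 2, 12114134). ARF3 (AT2G33860, ETTIN), a regulator of carpel and leaf polarity, had 7.38, 5.63 and 6.95, in a region inside the adjoining protein-coding gene AT2G33855 and 233 bp outside ARF3. ARF1 (AT1G59750) had 8.36 in list 1 and 3.66 in list 3. ARF16 (AT4G30080) had 4.02 and 4.56, and ARF17 (AT1G77850) 3.61 and 2.01, in lists 1 and 2. These 3 genes decide how the other ARF class is counted: without replicate 3 the class held 5 targets of 7, gaining ARF16 and ARF17, and without replicate 2 it held 4, gaining ARF1.

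**Figure D2:**
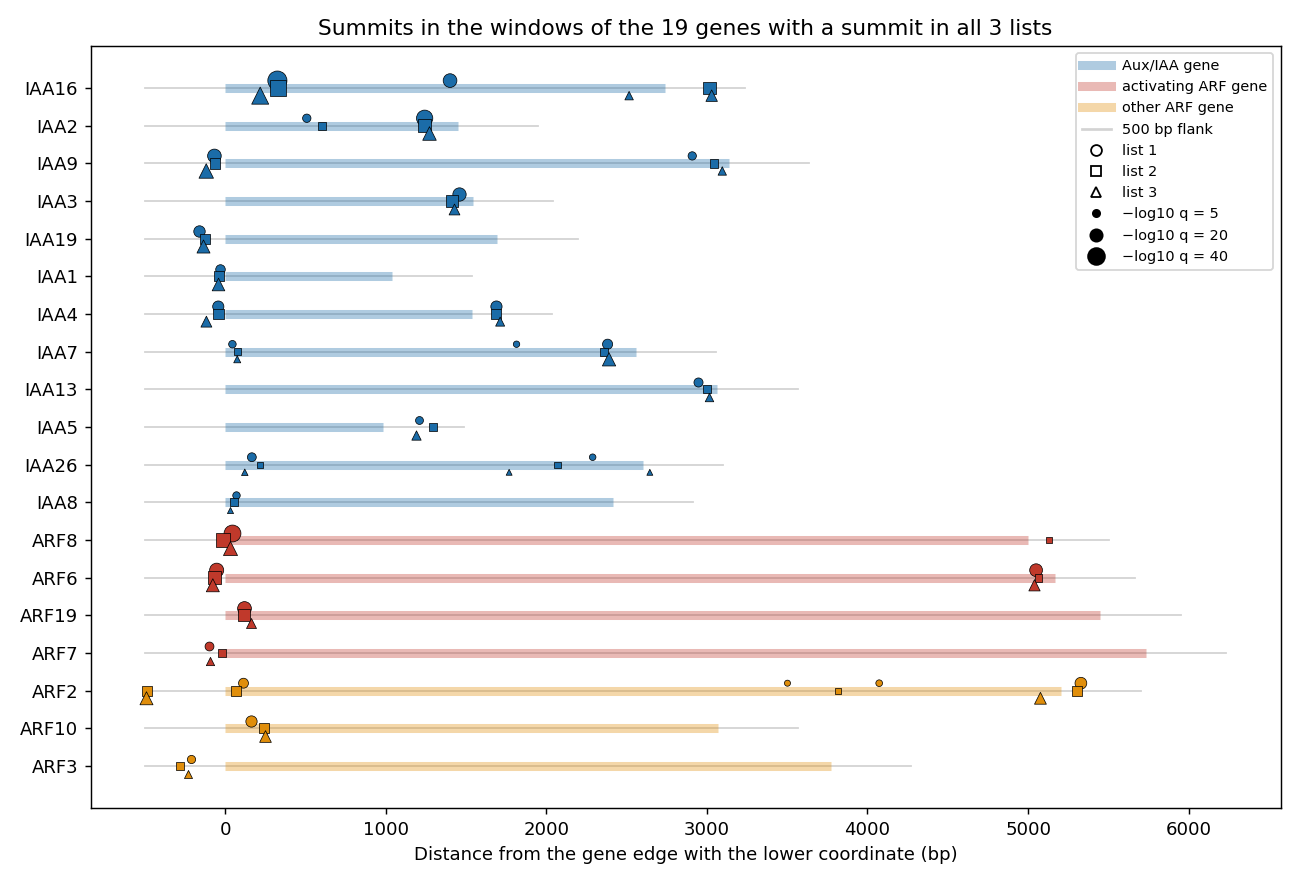
Summits in the windows of the 19 targets, drawn by distance in bp from the gene edge with the lower coordinate; coloured bars are genes, grey lines the 500 bp flanks, symbols the 3 lists, and symbol area grows with −log10 q. Summits gather at gene edges, at both ends of IAA4, IAA7, IAA9, ARF6 and ARF2, while in ARF7 and ARF19 they lie at one end only.

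Most summits of the targets lay near the ends of the genes. The windows of the 19 targets held 24 reproducible regions, meaning places where summits of all 3 lists were linked at gaps of at most 250 bp. The median region lay 115 bp from a gene edge, and 22 of the 24 lay within 250 bp, against 62.9% of 7261 such regions in the windows of all protein-coding genes. The regions beyond 250 bp were the IAA16 region, 326 bp inside, and the ARF2 region 489 bp outside. Inside the gene lay 9 of 15 Aux/IAA regions and 4 of 9 ARF regions, beside 3294 of the 7261 regions of all protein-coding genes. Summits of one region lay close together, with a median span of 49.5 bp.

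With each region given to its nearer edge, both edges had one at 5 of the 19 targets, IAA4, IAA7, IAA9, ARF6 and ARF2, against 9.75% of all protein-coding targets. Strand was not used here, so gene starts and gene ends are not told apart. Of the 24 regions, 17 fell in no other gene's window, 4 inside another gene and 3 in the flank of one. The same shares over all genes are not given here. The flank cases were IAA4 with AT5G43710 (234 bp), ARF2 with HSFB2A and ARF19 with AT1G19210 (113 bp). Giving each summit to 1 gene left all 12 Aux/IAA targets in place, against 16.7% of all protein-coding genes, and removed ARF7 and ARF3. IAA9 then stayed a target only through its weaker region (7.60, 7.90 and 7.84), because its stronger region lies inside AT5G09425.

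**Figure D3:**
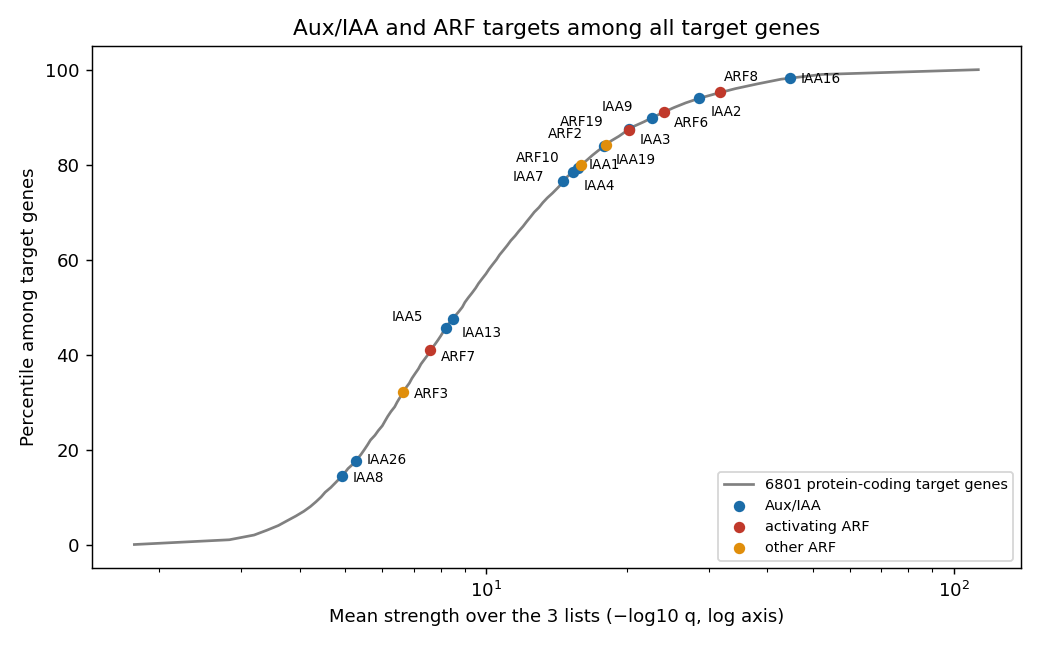
Mean strength over the 3 lists (−log10 q, log axis) against the percentile among the 6801 protein-coding target genes; the grey curve is all targets and points are the 19 members. By mean strength, points fall into an upper set of 13 from IAA7 (14.6) to IAA16 (44.7) and a lower set of 6 from IAA8 (4.92) to IAA13 (8.49). The gap does not hold in each list: in list 2 IAA7 (6.98) lay below IAA13 (7.72).

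Strength varied more within each class than between classes. The median of the mean strengths was 15.6 for the 12 Aux/IAA targets, 22.1 for the 4 activating ARF targets and 15.9 for the 3 other ARF targets, against 8.90 for all 6801 protein-coding targets. These strengths are not matched for gene length. The median length was 4869 bp over the ARF members and 2078 bp over all protein-coding genes, and the part of length was not tested. Above that overall median lay 8 of 12 Aux/IAA, 3 of 4 activating ARF and 2 of 3 other ARF targets. IAA16, IAA2, ARF8 and ARF6 stood highest, at percentiles 98.3, 93.9, 95.3 and 91.0 of all targets. No member had a mean strength between those of IAA13 (8.49) and IAA7 (14.6), but single lists crossed this gap. In list 2 IAA7 (6.98) lay below IAA13 (7.72), and in list 1 IAA1 had 11.0. Aux/IAA targets ran from 4.92 to 44.7, activating ARF targets from 7.61 to 31.7 and other ARF targets from 6.65 to 18.0.

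**Figure D4:**
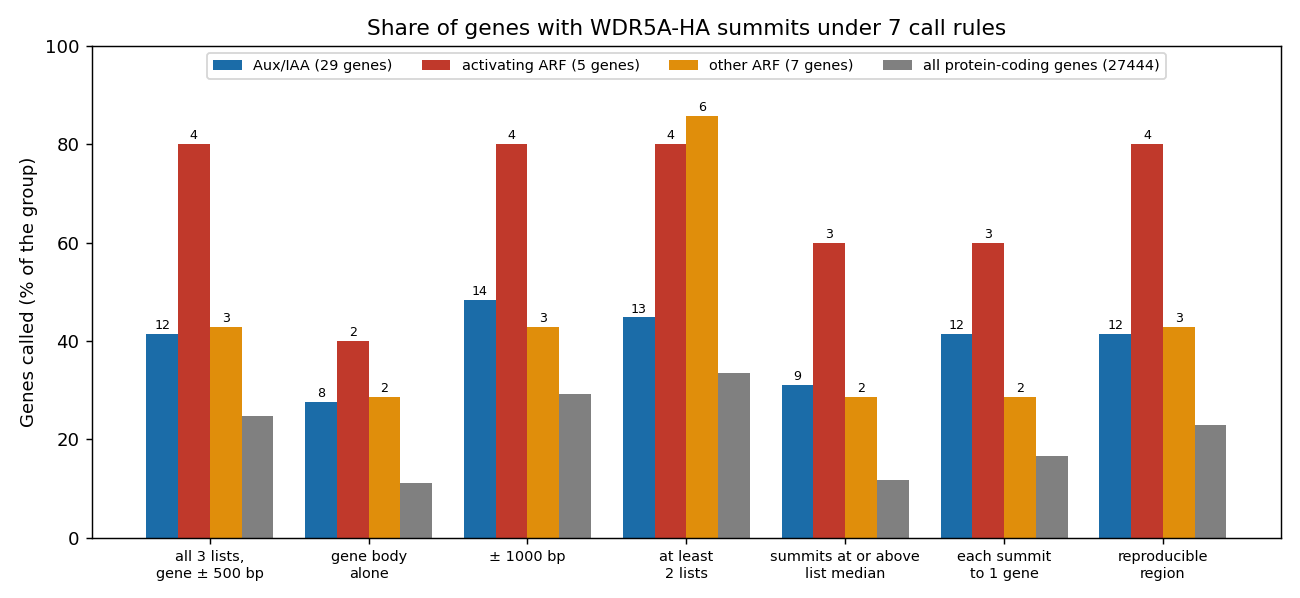
Share of genes called (percent of each group) under 7 call rules, for 29 Aux/IAA genes, 5 activating ARF genes, 7 other ARF genes and all 27444 protein-coding genes; numbers over the bars are genes. Each member class stands above the grey bar of all protein-coding genes under each of the 7 rules. The grey bar is not matched for gene length. Under the first rule, 25.5% of protein-coding genes in the Aux/IAA length range and 31.9% in the ARF length range were called. The order of the 2 ARF classes changes when a summit in 2 lists is enough. The 12 ARF members leave out 11 further ARF genes, none of which had a summit in all 3 lists.

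Other ways of calling moved the counts. Within gene bodies alone there were 8 Aux/IAA, 2 activating ARF and 2 other ARF targets, against 11.1% of all protein-coding genes. With flanks of 1000 bp there were 14, 4 and 3, against 29.3%. Requiring a summit in at least 2 lists gave 13, 4 and 6, against 33.5%, and here the other ARF class passed the activating class as a share. Using summits at or above the median of their list gave 9, 3 and 2, against 11.7%, and requiring a reproducible region gave 12, 4 and 3, against 22.9%. With 1 replicate left out, the background was 27.5% without replicate 1, 28.1% without replicate 2 and 27.5% without replicate 3. The Aux/IAA count was then 12, 12 and 13, and the activating count 4 each time.

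The window limit decided a few genes. IAA18 (AT1G51950), a regulator of lateral root and embryo patterning, had 1.95 and 5.69 inside its window in lists 1 and 2. Summits of 6.94, 5.33 and 6.62 lay 596, 592 and 508 bp outside IAA18, just beyond the limit. For IAA11 (AT4G28640) the nearest summits, 12.9, 10.2 and 11.6, lay 914, 891 and 869 bp outside. IAA27 (AT4G29080) had summits 823 and 830 bp outside in lists 1 and 3 and none in list 2. Just inside the limit were the ARF2 summits at 487 and 489 bp in lists 2 and 3, with the matching summit of list 1 at 506 bp. IAA31 (AT3G17600) had a single weak summit, 3.65 in list 3, 253 bp outside the gene.

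The 15 Aux/IAA genes with no summit in any list were IAA6, IAA10, IAA11, IAA12, IAA14, IAA15, IAA17, IAA20, IAA27, IAA28, IAA29, IAA30, IAA32, IAA33 and IAA34. Beside these 15 of 29 genes, 15476 of 27444 protein-coding genes had none. They include the lateral root repressors IAA14 (AT4G14550, SOLITARY-ROOT) and IAA28 (AT5G25890), the embryonic repressor IAA12 (AT1G04550, BODENLOS) and IAA29 (AT4G32280), a target of phytochrome-interacting factors. From these 15 genes, ARF4 and ARF5, the nearest reproducible region lay at a median of 3665 bp, from 891 bp at IAA11 to 8808 bp at IAA6 (AT1G52830), and within 2000 bp for 3 of the 17. Some of these distant regions were strong. The one 4474 bp from IAA30 (AT3G62100) had 31.0, 28.5 and 34.1, and the one 6120 bp from IAA27 had 26.6, 30.6 and 38.8.

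Aux/IAA proteins that lack a complete degron, the stretch by which auxin joins them to the receptors, are IAA20, IAA30, IAA31, IAA32, IAA33 and IAA34. This grouping was made after the values were seen. None of these 6 genes was a target, 1 had a summit in 1 list (IAA31) and 5 had none, whereas 12 of the other 23 Aux/IAA genes were targets, beside 25.5% of all protein-coding genes in the Aux/IAA length range. The 6 genes are also short, their median being 1268.5 bp and that of the other 23 genes 1907 bp, and the part of gene length in these counts was not tested. By small RNA control, likewise grouped afterwards, ARF6 and ARF8 (miR167) were both targets. Among the genes cut by the trans-acting siRNAs of TAS3, ARF2 and ARF3 were targets but ARF4 was not. Of ARF10, ARF16 and ARF17 (miR160), only ARF10 was a target. Beside these small groups, 31.9% of all protein-coding genes in the ARF length range were targets. The ARF3 call was lost with each summit given to 1 gene.

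Close relatives were called alike in 8 of 13 cases, where 46.3% of all 41 members and 24.8% of all protein-coding genes were targets. How often unrelated genes are called alike was not computed, so the count shows no likeness particular to relatives. Of these 13 paralogue pairs, both members were targets in 5 (IAA1 and IAA2, IAA3 and IAA4, IAA8 and IAA9, ARF6 and ARF8, ARF7 and ARF19), 1 member in 5, and neither in 3 (IAA10 and IAA11, IAA20 and IAA30, IAA32 and IAA34). The split pairs were IAA7 and IAA14, IAA13 and IAA12, IAA26 and IAA18, ARF3 and ARF4, and ARF10 and ARF16, although IAA18 and ARF16 had summits in 2 lists. Even where both were targets the strengths could differ: IAA9 stood at 22.7 ± 8.17 and IAA8 at 4.92 ± 1.94, IAA9 being higher in every list.

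Neighbours on the chromosome differed as well. IAA1 and IAA14, IAA2 and IAA7, and IAA3 and IAA17 lie 10732, 12510 and 6388 bp apart, each with no protein-coding gene between them. IAA2 and IAA7 were both targets, but IAA14 had no summit while IAA1 averaged 15.8 ± 5.31 (SD, n = 3), and IAA17 (AT1G04250, AXR3) had none while IAA3 averaged 20.2 ± 4.64. The space between IAA3 and IAA17 held 3 reproducible regions, 2196, 4148 and 4940 bp from IAA3, with means of 11.9 ± 8.09, 8.58 ± 2.86 and 10.2 ± 6.84 (SD, n = 3 each). The nearest of them to IAA17 lay 1449 bp away. It had 17.7, 8.55 and 4.32 in lists 1, 2 and 3, high in list 1 and low in list 3.

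Among the genes of the partner proteins, all 5 TOPLESS-type corepressor genes (TPL and TPR1 to TPR4) and 4 of the 6 receptor genes (TIR1, AFB2, AFB3 and AFB5) were targets, beside 24.8% of all protein-coding genes. With each summit given to 1 gene the calls of TPL, TPR2 and TPR3 were lost, leaving 2 of 5 corepressor genes and 4 of 6 receptor genes, beside 16.7%. TIR1, the founding auxin receptor, averaged 67.7 ± 14.2 (SD, n = 3), above every Aux/IAA and ARF target. AFB2, AFB5 and AFB3 averaged 24.7 ± 2.86, 18.1 ± 5.30 and 9.58 ± 1.64 (SD, n = 3 each), within the range of the Aux/IAA and ARF targets (the AFB3 mean joins summits at opposite ends), while AFB1 and AFB4 had summits in lists 2 and 3 only. The corepressors TPR3, TPR1 and TPL averaged 103.5 ± 13.5, 69.6 ± 11.1 and 50.1 ± 7.12 (SD, n = 3 each), and TPR2 had 74.7, 50.7 and 64.2, all 4 above IAA16 in every list. TPR4 averaged 6.56 ± 0.513 (SD, n = 3), a mean that joins summits at opposite ends of the gene, 8017 bp apart. None of the 11 further ARF genes was a target, beside the same 24.8%: ARF9 had one summit of 5.06 in list 2, and ARF11 to ARF15, ARF18 and ARF20 to ARF23 had none. Of 7 microRNA loci that act on ARF transcripts, MIR167A (30.1, 22.1 and 26.3) was a target, beside 7.36% of 326 microRNA genes, and the 3 MIR160 and the other 3 MIR167 loci had no summit. The trans-acting siRNA gene TAS3 was a target with 26.5, 25.4 and 18.3, from summits up to 1263 bp apart.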

How the data were processed

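ChIP-seq peak lists of 3 immunoprecipitated libraries were used. Nothing was read here from the 3 input libraries, and whether they entered the peak calls is not known. The TAIR10 build and the tools MACS2 2.2.5, Bowtie2 2.3.3, deepTools and fastp are named in the submitters' processing notes. The sources used here do not give read filters, peak thresholds or the use of inputs. Each deposited list holds a 1 bp summit and a strength, read as −log10 q because its minimum (1.301) is the −log10 of 0.05. Peak names carry 1 replicate each, so peaks were taken as called per sample.

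Positions are 1-based. Genes came from RefSeq TAIR10.1, whose coordinates are not printed. The fit of the builds was checked by shifting: 52.0% of reproducible regions were within 250 bp of a protein-coding gene's edge unshifted, and 17.0% to 23.4% at shifts of 500 to 5000 bp. All 41 members and 30 pathway genes matched. A gene's strength is that of the strongest summit in its window, so longer windows have more chances. Scripts (Python 3.11.15, pandas 2.3.3) were tested on simulated data.

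Members, lists and rules were chosen with earlier results of these data known. Named were all members, with the 5 strongest Aux/IAA and 3 strongest ARF genes in full. The length ranges and the groupings by degron and small RNA were chosen after values were seen. No test was run. The searches for promoter and protein motifs were not run. The series' design text calls the replicates biological. Depth is unknown, so no interval or detection limit is given.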

Additional observations from a re-analysis of the deposited data

How the results depend on the processing

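The Aux/IAA count (12 of 29) stayed between 8 and 14 under the 9 alternatives, within 1.5 times. The activating ARF count (4 of 5) was 2 with gene bodies alone and 3 or 4 under the other 8 alternatives. The other ARF count (3 of 7) was 6 when a summit in 2 lists was enough, and 3 to 5 with 1 replicate left out, the highest without replicate 3. The median strength of Aux/IAA targets (15.6) was 11.6 with gene bodies alone and 12.9 to 17.4 with 1 replicate left out. That of ARF targets (18.0) was 15.0 to 18.2 with 1 replicate left out, both medians being lowest without replicate 3. In these cases the cause was not tested. As percentile ranks within the lists the medians were 83.0 for Aux/IAA and 86.4 for ARF targets, on another scale. With unknown depth, a gene with no summit is one at which none was called, and 5 activating ARF genes are too few for a share to be firm. No paired analysis was possible because no list of the input libraries was analysed here.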
